A study of Rattus norvegicus with 20 samples.

Results

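Chemokine, cytokine, adhesion and inhibitor genes controlled by NF-kB were followed in primary cultures of neonatal rat heart cells given diclofenac, which blocks the cyclooxygenases and is used against pain and inflammation. The set held 10 genes, Ccl2, Ccl7, Ccl20, Cxcl1, Cxcl10, Il6, Il1b, Nfkbia, Icam1 and Vcam1. They were found by the gene name printed for each non-control probe in the scanner files and checked against the probe's description, which gave 13 of the 41012 probes and 10 of 35535 gene names on the array. Ccl7, Il1b and Nfkbia had 2 probes each, and 1 probe of each of Ccl2, Icam1, Il1b and Il6 was printed as 10 spots per array.

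The 20 arrays carried RNA labelled with 1 dye from cultures described as cardiomyocytes from neonatal heart, which had grown for a day before treatment. No genotype or strain is named. There were 2 arrays of untreated cultures, where the series describes 3 replicates per condition. Treated cultures received 1, 1/5 or 1/25 of a reference concentration and were taken after 6 h or 24 h, with 3 arrays in each of these 6 groups. The molar concentrations and the time at which untreated cultures were taken are not given in the sources used here, so the effect of treatment and that of culture age cannot be told apart. Nothing in the labels says that replicates were separate cultures, and p-values therefore rest on the spread among these arrays alone, and that spread may be technical. In RNA from whole cultures, fewer cells of a type and less RNA per cell cannot be told apart.

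NF-kB is a family of transcription factors that inhibitor proteins, of which IkB-alpha (encoded by Nfkbia) is the best known, hold in the cytoplasm. Signals from Toll-like receptors, the interleukin 1 receptor or the tumour necrosis factor receptors lead to the breakdown of the inhibitor, and the freed factor enters the nucleus and binds kappaB sites near its target genes. Among those targets are chemokines that draw monocytes, lymphocytes and neutrophils, the cytokines interleukin 1 beta and interleukin 6, endothelial adhesion molecules, and Nfkbia itself, which closes a negative feedback loop. In the heart these genes are known from the response to injury and infection, in cardiomyocytes as well as in fibroblasts, endothelial cells and macrophages.

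Promoter sequences are shown for the 6 members that held a match to the kappaB consensus, since it is the feature that names the set. The reference promoters of RefSeq (rat build GRCr8) run from 250 bases before to 50 bases after a gene's start and were found for 9 of the 10 members. The consensus, searched on both strands, matched in Ccl20, Cxcl1, Cxcl10, Il6, Nfkbia and Vcam1, while 4.18% of all 33469 promoters of 300 bases held a match (1400 promoters). Ccl7, Il1b and Icam1 had no match in this window, and Ccl2 had no entry. A match is a description of letters, not a measured site. The set is named for NF-kB, so its matches beside the share of all promoters are no independent comparison. Each stretch of 120 bases is written 5′ to 3′ on the gene's strand, with the match in capitals.
Ccl20 (chr9:91837039-91837158, plus strand, bases -120 to -1 from the start): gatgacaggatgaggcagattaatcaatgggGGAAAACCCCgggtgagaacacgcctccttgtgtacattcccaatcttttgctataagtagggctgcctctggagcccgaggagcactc
Cxcl1 (chr14:17479322-17479441, minus strand, bases -120 to -1): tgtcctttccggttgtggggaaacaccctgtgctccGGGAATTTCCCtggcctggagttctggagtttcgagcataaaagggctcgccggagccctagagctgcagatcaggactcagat
Cxcl10 (chr14:15988846-15988965, plus strand, bases -220 to -101): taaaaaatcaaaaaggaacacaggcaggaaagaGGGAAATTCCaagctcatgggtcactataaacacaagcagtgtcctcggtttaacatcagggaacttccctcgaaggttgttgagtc
Il6 (chr4:5894576-5894695, minus strand, bases -120 to -1): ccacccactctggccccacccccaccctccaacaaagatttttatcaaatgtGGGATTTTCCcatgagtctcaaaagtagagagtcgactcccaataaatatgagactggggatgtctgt
Nfkbia (chr6:78597073-78597192, minus strand, bases -120 to -1): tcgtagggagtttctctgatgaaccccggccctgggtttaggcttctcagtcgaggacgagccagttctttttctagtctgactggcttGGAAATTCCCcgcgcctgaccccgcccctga
Vcam1 (chr2:206742784-206742903, minus strand, bases -120 to -1): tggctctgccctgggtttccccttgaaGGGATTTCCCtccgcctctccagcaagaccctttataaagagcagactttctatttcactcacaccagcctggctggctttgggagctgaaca
The matches lay between 187 and 22 bases before the start. In Cxcl1 a match on each strand overlapped, so the capitals cover 11 bases there, and the match in Vcam1 reads on both strands.

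On each array 64.1 to 88.2% of 43379 spots were well above background. The array of concentration 1/5 at 24 h, replicate 3, stood apart, with the lowest share (64.1%) and a 75th percentile of signal of 3165, against 9623 to 21937 on the other 19 arrays. Of the 9 members with a measured level, 4 were at their highest of the 20 arrays there (Ccl2, Ccl20, Cxcl10, Vcam1) and 3 at their lowest (Cxcl1, Il1b, Nfkbia). The share of all genes at an extreme on that array is not given, so these counts are not read as a trait of the members. The next lowest shares were 72.4% (concentration 1/25 at 24 h, replicate 1), 75.1% (1/25 at 6 h, replicate 2) and 76.5% (1/5 at 24 h, replicate 1). Of 8 cardiomyocyte markers, 7 were well above background on every array, as were 4 of 8 fibroblast, 2 of 8 endothelial, 3 of 6 smooth muscle and 6 of 9 macrophage and leukocyte markers. The endothelial marker Emcn was well above background on none. The summed log2 level of the macrophage and leukocyte list was 2.88 to 3.02 in untreated cultures, 2.55 to 3.20 at 6 h and 2.58 to 3.00 at 24 h, and that of the endothelial list 1.41 to 1.49, 0.96 to 2.03 and 1.38 to 3.38. Their part in the results was not tested. Untreated arrays shared a slide and a scan day only with arrays of concentration 1 at 6 h, and a scan day with concentration 1/5 at 6 h. For the other 4 groups, slide and scan day cannot be told apart from the difference with untreated cultures.

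Levels are given as log2 of the processed signal minus the array's 75th percentile, called the normalized level; a value of 0 is that percentile, and 1 unit is a factor of 2. Levels of different probes are not compared with each other. Of the 10 members, 9 had a probe that was detected, meaning well above background, on all arrays of 1 or more groups. Il6 did not and has no test.

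No measured member passed the threshold in any of the 14 comparisons (limma over all genes, Benjamini-Hochberg adjusted p at most 0.05). Against untreated cultures, 0 of 9 members passed at concentration 1 for 6 h, where 0.00656% of 30506 genes did. None of 9 passed at 1/5 or 1/25 for 6 h, where the share of all genes was 0%. At 24 h, 0 of 9 passed at concentration 1 (0.00328% of all genes), at 1/5 (0.184%) and at 1/25 (0.00328%). Without adjustment, a p under 0.05 was reached at 6 h by 0 members at concentration 1, where 1.48% of all genes reached it (1.29% higher and 0.193% lower). At 1/5 it was reached by 1 member (Ccl2, lower) and by 1.09% of genes (0.403% higher and 0.685% lower), and at 1/25 by 0 members and 1.16% of genes (0.131% and 1.03%). After 24 h, 2 members reached it at concentration 1 (Ccl2 and Ccl20, both lower), beside 4.56% of genes (1.89% higher and 2.67% lower). At 1/5 it was 1 member (Vcam1, higher) beside 30.4% of genes (17.2% and 13.2%), and at 1/25 1 member (Icam1, higher) beside 13.4% (3.44% and 9.93%). The median standard error of a difference from untreated cultures was 0.55 over all genes, and those of the members ran from 0.32 (Ccl7) to 1.13 (Cxcl10). These errors rest on a spread per gene that is pooled over all groups. Comparisons without 1/5 at 24 h therefore still carry the spread of that group, which holds the array that stood apart. On the brighter probes, the SD between arrays was largest in that group for Ccl2 (2.27), Cxcl1 (1.99), Cxcl10 (2.70), Il1b (1.39), Nfkbia (0.79) and Vcam1 (2.15). It was not for Ccl7, Ccl20 and Icam1. The comparisons with untreated cultures share the same 2 arrays.

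**Figure D1:**
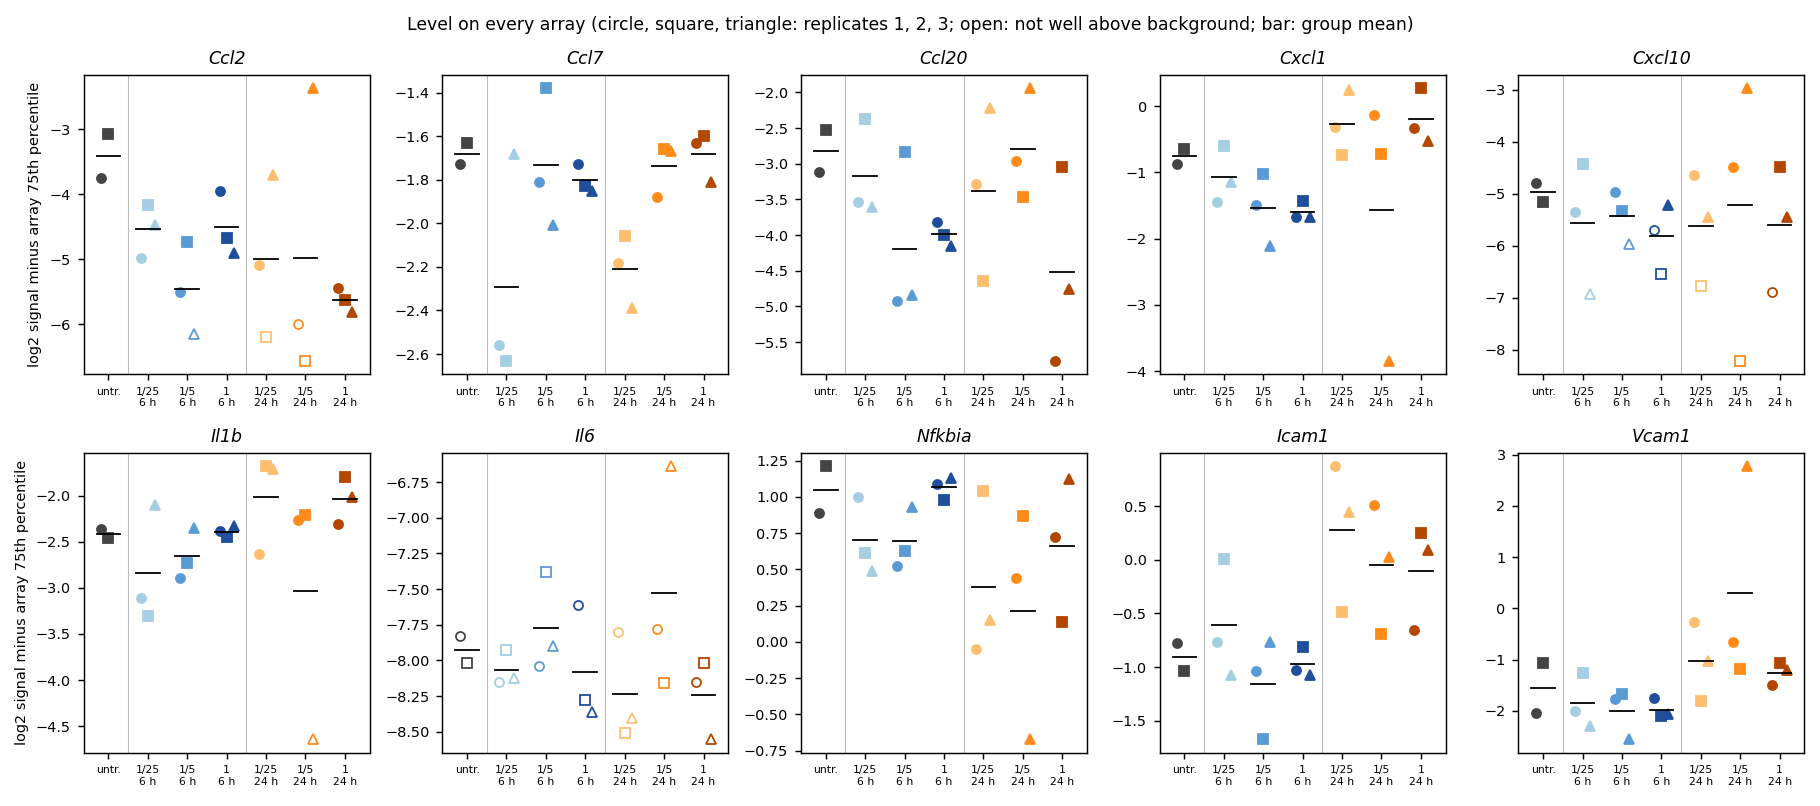
Normalized level (log2 signal minus the array's 75th percentile) of each of the 10 members on each of the 20 arrays, 1 panel per gene, with groups on the horizontal axis (untr. for untreated) and the group mean as a bar. Open symbols are arrays on which the probe was not well above background. Ccl2 at 6 h lies below both untreated arrays on all 9 arrays, Icam1 at 24 h lies above both on all 9, and the triangle of 1/5 at 24 h is often the farthest point.

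Among the chemokines, Ccl2 (MCP-1, the main attractant of monocytes through the receptor Ccr2) was lower than in untreated cultures on most treated arrays. Its probe lies at chr10:70271542-70271601 (build rn3), and its level was -3.75 and -3.07 on the untreated arrays. At 6 h it was -3.95, -4.67 and -4.90 at concentration 1, -5.50, -4.74 and -6.15 at 1/5, and -4.98, -4.17 and -4.47 at 1/25. All 9 arrays at 6 h lay below both untreated arrays, which held for 0.738% of 30506 genes. After 24 h it was -5.45, -5.63 and -5.81 at concentration 1, -6.00, -6.56 and -2.37 at 1/5, and -5.09, -6.20 and -3.70 at 1/25. Of these 9 arrays, 7 lay below both untreated arrays and 1 above them, the array that stood apart. For such counts of fewer than all 9 arrays, here and for other members, the share of all genes is not given. They are therefore descriptions of arrays and not results about a member.

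The mean difference of Ccl2 from untreated cultures was -1.09 (SE 0.91, adjusted p = 0.99998 by limma) at concentration 1 for 6 h, -2.05 at 1/5 and -1.13 at 1/25. At 24 h it was -2.22 (95% interval -4.15 to -0.30, adjusted p = 0.999 by limma) at concentration 1, a level 0.214 times that of untreated cultures, with -1.57 at 1/5 and -1.59 at 1/25. All 6 differences kept their sign under each alternative run, and none passed the threshold. Without the array that stood apart, the difference at 1/5 for 24 h was -2.87 (limma, adjusted p = 0.082), from 2 arrays on which the probe was not well above background. In place of -1.57, the value was -0.88 with normexp background correction, -0.90 with quantile normalization, -0.43 in the authors' deposited table and -0.78 without replicate 2 of that group. The probe was well above background on 16 of 20 arrays. On 4 (1/5 at 6 h replicate 3, 1/5 at 24 h replicates 1 and 2, and 1/25 at 24 h replicate 2) it was not, so the values there are near the limit of detection. On the slide that untreated cultures share with concentration 1 at 6 h, the difference was -0.90, in the same direction. The 10 spots of an array had a median SD of 0.16, against a median SD of 0.49 between the arrays of a group, so spots of an array differed less than arrays of a group. The summed level of the erythroid list, which holds Ahsp (a chaperone of haemoglobin and the gene whose levels were most like those of Ccl2), was 0.04 to 0.16 in untreated cultures, -0.49 to 0.21 at 6 h and -1.37 to 0.47 at 24 h, with 2 of 5 genes well above background on every array and Hbb on none; its part in the Ccl2 values was not tested.

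**Figure D2:**
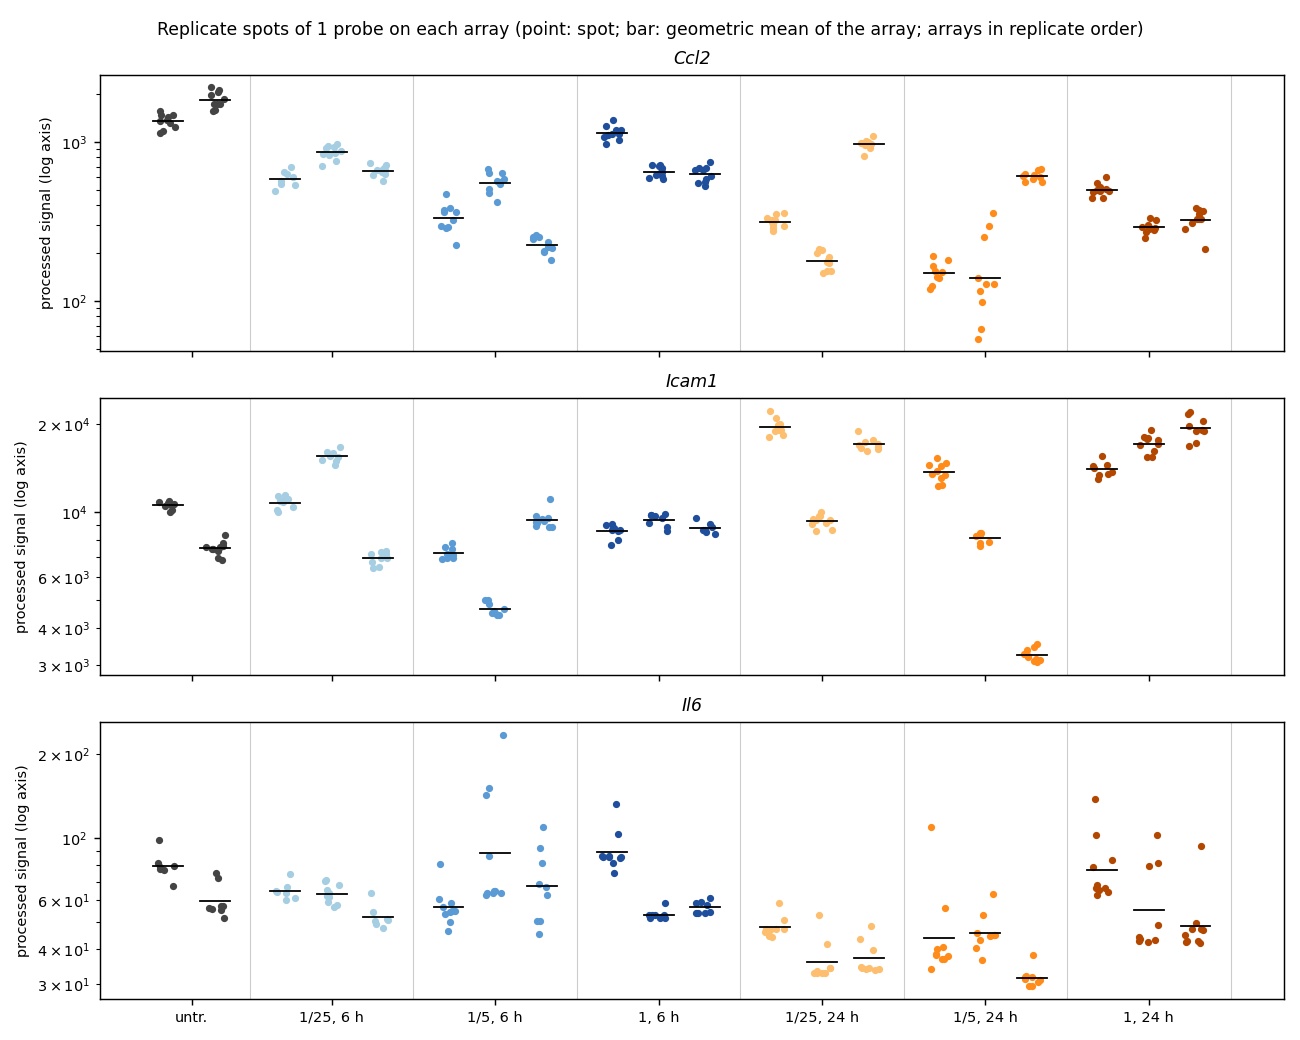
Processed signal (log axis) of the 10 replicate spots of the Ccl2, Icam1 and Il6 probes on each array, less the spots the scanner software marked; points are spots, bars the geometric mean of an array, and arrays stand in replicate order within each group. Spots of an array lie close together for Ccl2 and Icam1, apart from Ccl2 on replicate 2 of 1/5 at 24 h, and Il6 lies near 31.3 to 85.5 (medians per array) throughout.

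Ccl7 (MCP-3, a monocyte attractant whose gene neighbours Ccl2) differed little between groups on its brighter probe (chr10:70282266-70282325). The level was -1.73 and -1.63 in untreated cultures, -1.73, -1.83 and -1.85 at concentration 1 for 6 h, and -1.63, -1.60 and -1.81 at concentration 1 for 24 h. The difference was -0.13 (95% interval -0.80 to 0.55) and 0.00 (-0.68 to 0.67), respectively. At 1/25 for 24 h the level was -2.18, -2.06 and -2.39, below both untreated arrays, as in 20.4% of all genes, with a difference of -0.53 (limma, adjusted p = 0.43). That difference was -0.15 with quantile normalization, -0.03 with median scaling and -0.04 in the authors' deposited table. At 1/25 for 6 h 2 arrays were low (-2.56 and -2.63) and 1 was not (-1.68). The second probe (chr10:70282297-70282356), well above background on 17 arrays, gave differences of the same sign in 5 of 6 groups. They disagreed most at 1/5 for 6 h, by 0.70. On the array that stood apart the second probe read -2.0 and the other 19 arrays at most -4.68, while the brighter probe read -1.67 there.

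Ccl20 (the ligand of Ccr6, which attracts lymphocytes and dendritic cells) had a level of -3.11 and -2.53 in untreated cultures (chr9:82626766-82626825). At 6 h it was -3.81, -4.00 and -4.15 at concentration 1, -4.92, -2.83 and -4.84 at 1/5, and -3.53, -2.37 and -3.60 at 1/25. The 24 h values were -5.76, -3.05 and -4.76 at concentration 1, -2.96, -3.46 and -1.94 at 1/5, and -3.28, -4.64 and -2.22 at 1/25. Concentration 1 at 6 h lay below both untreated arrays without overlap, and the 24 h groups were wide, with an SD of 1.37 at concentration 1. The difference from untreated cultures was -1.17 at concentration 1 for 6 h (-1.08 within the shared slide) and -1.70 for 24 h (95% interval -3.40 to -0.00, adjusted p = 0.999 by limma). At 24 h the level at concentration 1 was lower than at 1/5 by a difference of -1.73 (limma, adjusted p = 0.19), or -1.31 without the array that stood apart.

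Cxcl1 (KC or GRO, a neutrophil attractant that acts through Cxcr2) lay below the untreated level at 6 h and mostly above it at 24 h (chr14:18690468-18690527). It was -0.87 and -0.65 in untreated cultures and -1.68, -1.43 and -1.68 at concentration 1 for 6 h, below both. At 24 h the same concentration gave -0.33, 0.27 and -0.53, above both. At 1/5 it was -1.50, -1.02 and -2.11 at 6 h and -0.13, -0.73 and -3.84 at 24 h, and at 1/25 -1.44, -0.61 and -1.14 at 6 h and -0.31, -0.74 and 0.24 at 24 h. Of 9 arrays at 6 h, 8 lay below both untreated arrays, and of 9 at 24 h, 6 lay above both and 1 below, the array that stood apart. How common such counts are over all genes is not given. Neither difference from untreated cultures at concentration 1 passed, at -0.84 (SE 0.74) for 6 h and 0.56 (SE 0.74) for 24 h. At 1/5 for 24 h the difference was -0.81 with all arrays and 0.33 without the array that stood apart. On that array the scanner signal of Cxcl1 was 221, against 3700 to 17500 on the other 19.

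Cxcl10 (IP-10, an interferon-induced attractant of T cells through Cxcr3) was dim, with its probe (chr14:17267994-17268053) well above background on 13 of 20 arrays. The level was -4.79 and -5.16 in untreated cultures and -5.69, -6.54 and -5.21 at concentration 1 for 6 h, where replicates 1 and 2 were not well above background. Across 24 h arrays it ran from -8.21 to -2.97, both ends in the group of 1/5. The 6 mean differences from untreated cultures were from -0.84 to -0.25, each with an SE of 1.13. With quantile normalization those at 1/5 and 1/25 for 24 h were 0.47 and 0.15. The difference was 0.08 at 1/25 for 6 h without replicate 3 of that group and 0.01 at concentration 1 for 24 h without replicate 1, and 1.25 at 1/5 for 24 h without replicate 2, so no direction is given for these 4 groups.

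With concentration 1 at 6 h, the 5 chemokines all lay below both untreated arrays, as did 11.6% of 30506 genes. Ccl7 did so by less than the second decimal on its brighter probe. Its second probe overlapped, with -4.70 on replicate 1 and -4.68 and -4.96 in untreated cultures. Cxcl10 was not well above background on replicates 1 and 2 of this group. At 1/5 for 6 h 2 of 9 members lay below both untreated arrays (Ccl2 and Cxcl1, 9.8% of genes) and at 1/25 1 did (Ccl2, 6.49%). No member lay above both untreated arrays without overlap in a 6 h group, where 14.1%, 11% and 4.41% of genes did at 1, 1/5 and 1/25. On the slide shared with untreated cultures, the differences at concentration 1 for 6 h were -0.80 for Cxcl1 and -1.14 for Cxcl10. With slide as a fixed block, those at 1/5 for 6 h were -1.47 for Ccl2, -1.14 for Ccl20, -0.66 for Cxcl1 and -1.36 for Cxcl10. The median difference of the 9 members was -0.43, -0.45 and -0.35 in these groups, beside 0.01, 0.02 and -0.07 over all genes. After 24 h at concentration 1, Cxcl1, Il1b (on its brighter probe only) and Icam1 lay above both untreated arrays (14.1% of genes) and Ccl2 below (17.8%). At 1/5 for 24 h Icam1 lay above (20.7%) and Nfkbia below (19.4%), and at 1/25 Icam1 lay above (20% of genes) and Ccl7 below (20.4%). The members' median difference was 0.00, -0.25 and -0.53 in these groups, beside -0.10, -0.12 and -0.13 over all genes. These medians depend on the scaling. With quantile normalization they were 0.13, 0.31 and 0.15, beside 0.01, 0.03 and 0.03 over all genes. With median scaling they were 0.21, 0.27 and -0.03, beside 0.11, 0.40 and 0.37.

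**Figure D3:**
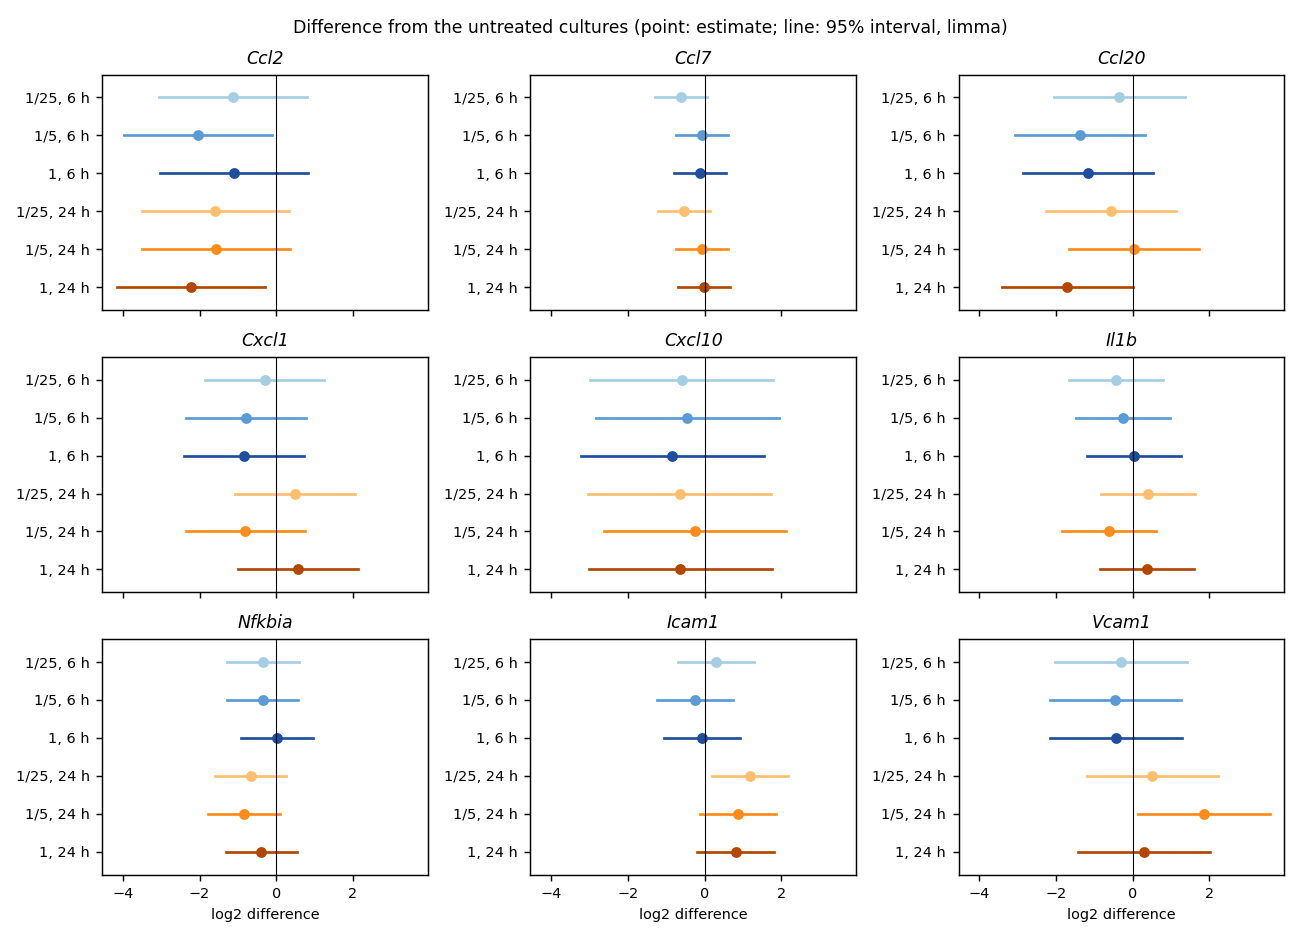
Difference of the normalized level from untreated cultures (log2, horizontal axis) for the 9 measured members in each treated group, with the limma estimate as a point and its 95% interval as a line. Intervals lying wholly on one side of 0 are those of Ccl2 at 1/5 for 6 h and at 1 for 24 h, Ccl20 at 1 for 24 h, Icam1 at 1/25 for 24 h and Vcam1 at 1/5 for 24 h, none of which passed after adjustment.

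Of the cytokines, Il1b (interleukin 1 beta, which signals through Il1r1) had a level on its brighter probe (chr3:116870289-116870348) of -2.36 and -2.46 in untreated cultures. It was -2.38, -2.45 and -2.33 at concentration 1 for 6 h and -2.30, -1.79 and -2.01 for 24 h. The 24 h arrays lay above both untreated arrays, as in 14.1% of all genes, by a difference of 0.38 (95% interval -0.85 to 1.60). At 1/5 for 24 h it was -2.26, -2.21 and -4.64, the last on the array that stood apart, where it was not well above background. The difference there was -0.62 with that array and 0.18 without it. At 1/25 for 24 h the level was -2.63, -1.68 and -1.71.

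The second Il1b probe (chr3:116870038-116870097, 10 spots) did not follow the first. Its level was -3.46 and -2.85 in untreated cultures and -2.97, -4.30 and -3.84 at concentration 1 for 24 h, a difference of -0.55 where the brighter probe had 0.38. The probes gave the same sign in 3 of 6 groups and were farthest apart at 1/25 for 24 h, with -0.95 against 0.40. The direction of Il1b at 24 h therefore depends on the probe.

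The probe of Il6 (interleukin 6, which signals through Il6r and Il6st) stayed near background on all 20 arrays. Of its 200 spots, 10 on each array, 4 (2%) were well above background, and the median signal of an array was 31.3 to 85.5 in the scanner's units. The normalized level was -7.83 and -8.02 in untreated cultures, -7.61, -8.28 and -8.36 at concentration 1 for 6 h, and -8.15, -8.02 and -8.55 for 24 h. These values have no order, and no fold is given. The probe spans chr4:457279-458563 on the minus strand.

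Nfkbia, the inhibitor gene, was bright on 1 probe (chr6:75733564-75733623), and on that probe it lay at or below the untreated level in the treated groups. The level was 0.89 and 1.21 in untreated cultures, 1.09, 0.98 and 1.13 at concentration 1 for 6 h and 0.72, 0.14 and 1.12 for 24 h. At 6 h it was 0.52, 0.63 and 0.93 at 1/5 and 1.00, 0.61 and 0.49 at 1/25. At 24 h it was 0.44, 0.87 and -0.67 at 1/5, without overlap with untreated cultures (19.4% of genes were lower and 20.7% higher in this way), and -0.05, 1.04 and 0.15 at 1/25. On this probe no array at either time lay above both untreated arrays, while 4 of 9 at 6 h and 7 of 9 at 24 h lay below both. The share of all genes with counts like these is not given. None of the differences passed. They ranged from 0.02 (95% interval -0.91 to 0.95) at concentration 1 for 6 h to -0.84 (-1.77 to 0.09; adjusted p = 0.20 by limma) at 1/5 for 24 h, which was -0.40 without the array that stood apart. The dimmer probe (chr6:75733342-75733401) was not well above background on 2 of the 3 arrays of 1/5 at 24 h, and its difference there is not given. At 6 h it gave 0.30 at concentration 1, 0.28 at 1/5 and -0.42 at 1/25. The signs of the 2 probes differed at 1/5 for 6 h. Its values of -3.12 (concentration 1, replicate 2) and -3.13 (1/5, replicate 1) at 6 h lay above both untreated arrays (-4.06 and -3.40). At 24 h it gave -0.65 at concentration 1 and -0.97 at 1/25.

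The adhesion molecules had higher mean levels at 24 h than at 6 h, by differences that did not pass the threshold. Icam1 (ICAM-1, the ligand of leukocyte integrins) was measured by 10 spots per array (chr8:20051730-20051789) whose median SD was 0.07, against a median SD of 0.48 between arrays of a group. The level was -0.78 and -1.04 in untreated cultures. At 6 h it was -1.03, -0.81 and -1.07 at concentration 1, -1.04, -1.67 and -0.77 at 1/5, and -0.77, 0.01 and -1.07 at 1/25. At 24 h it was -0.65, 0.25 and 0.09 at concentration 1, 0.51, -0.69 and 0.03 at 1/5, and 0.87, -0.49 and 0.45 at 1/25. All 9 arrays at 24 h lay above both untreated arrays, which held for 3.61% of 30506 genes, while at 6 h 3 of 9 lay above and 3 below. Several of the higher values were on the arrays with the lowest shares of detected spots, 0.87 at 72.4%, 0.51 at 76.5%, 0.03 at 64.1% and, at 6 h, 0.01 at 75.1%.

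The difference of Icam1 from untreated cultures at 24 h was 0.81 (SE 0.47, adjusted p = 0.999 by limma) at concentration 1, 0.86 (adjusted p = 0.21 by limma) at 1/5 and 1.19 (95% interval 0.19 to 2.18; adjusted p = 0.36 by limma) at 1/25. At 6 h it was -0.06, -0.25 and 0.30. The 3 differences at 24 h kept their sign under each alternative run, with ranges of 0.63 to 1.08, 0.22 to 1.38 and 0.89 to 1.68. At 1/5 the difference was 0.22 without the 4 arrays with the lowest shares, which leaves 1 array in that group, and 0.37 with the share as a covariate. The mean difference was largest at the lowest concentration, with overlapping intervals, and the groups of 24 h share no slide with untreated cultures.

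Vcam1 (VCAM-1, the ligand of the integrin VLA-4) had a level of -2.04 and -1.06 in untreated cultures (chr2:212240449-212240508). After 6 h the values were -1.76, -2.11 and -2.06 at concentration 1, -1.77, -1.68 and -2.55 at 1/5, and -2.0, -1.26 and -2.30 at 1/25. After 24 h they were -1.49, -1.07 and -1.21 at concentration 1, -0.66, -1.19 and 2.77 at 1/5, and -0.27, -1.81 and -1.02 at 1/25. The value of 2.77 was on the array that stood apart. Its scanner signal there, 21600, was also the highest, against 2740 to 8900 on the other 19 arrays, although the array as a whole was the dimmest. With it the difference from untreated cultures at 1/5 for 24 h was 1.85 (95% interval 0.14 to 3.57; adjusted p = 0.14 by limma), and without it 0.62 (adjusted p = 0.44 by limma). The same array held the highest summed level of the endothelial list (3.38, against 0.96 to 2.69 on the others), of the cardiomyocyte list (6.46) and of the fibroblast list (6.37), and the lowest of the smooth muscle list (0.65). Their part in the Vcam1 value was not tested.

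**Figure D4:**
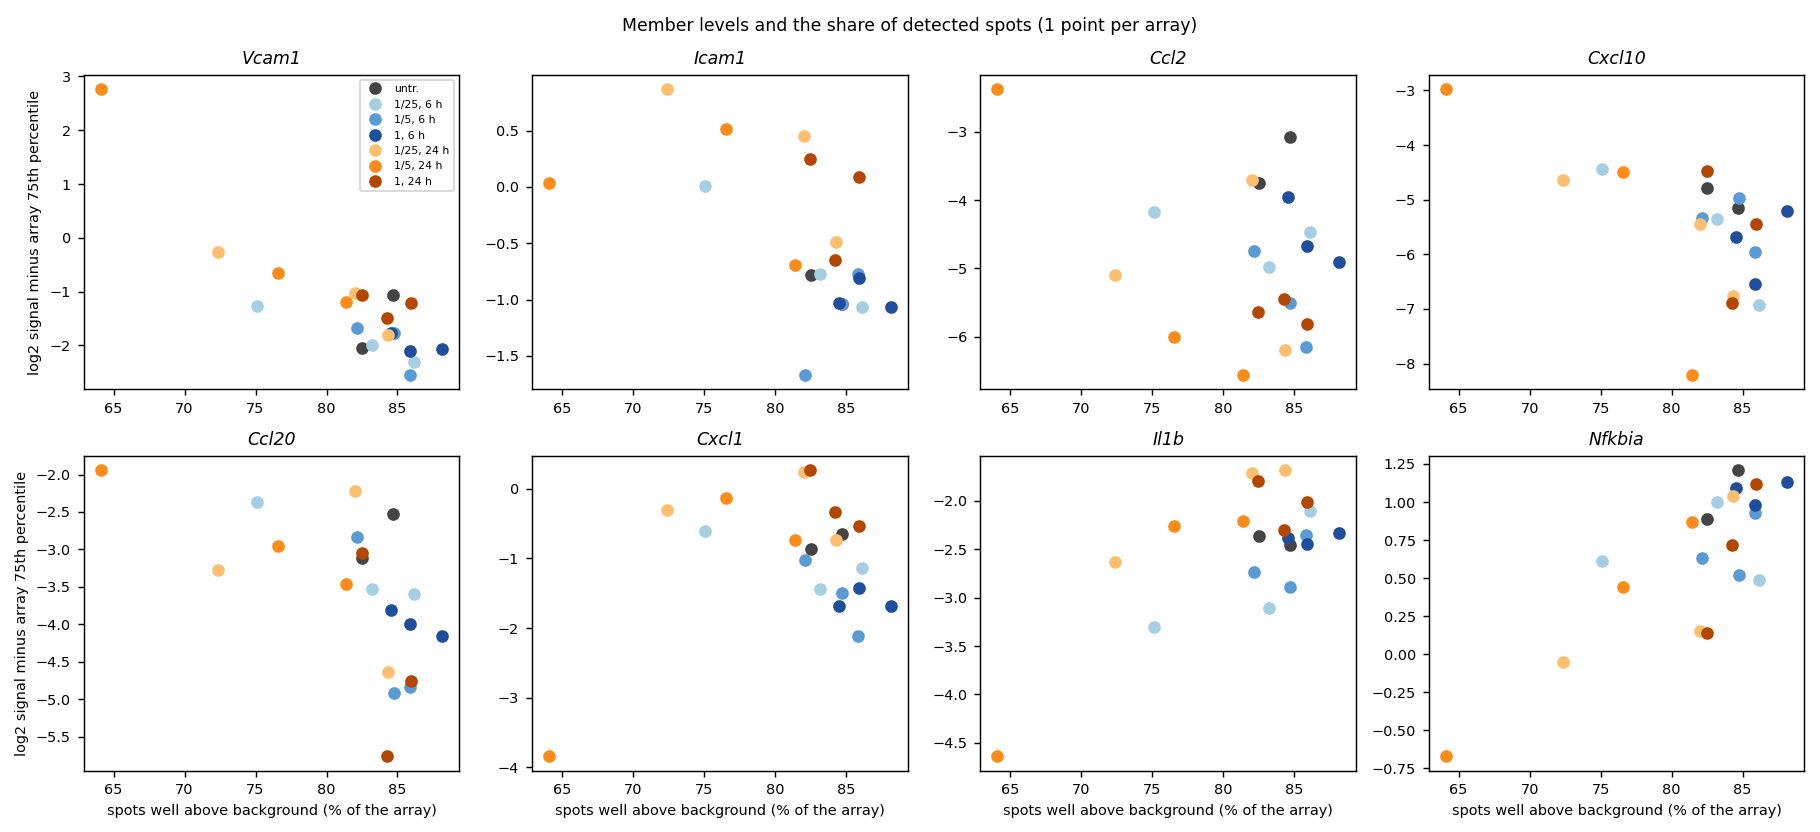
Normalized level (vertical axis) of 8 members against the share of spots well above background on the array (horizontal axis, %), 1 point per array and coloured by group. The array with 64.1% is the highest for Vcam1, Ccl2, Cxcl10 and Ccl20 and the lowest for Cxcl1, Il1b and Nfkbia, and the highest Icam1 value, 0.87, is on the array with 72.4%.

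At a fixed concentration, 24 h was compared with 6 h without the untreated arrays. At concentration 1, 0 of 9 members passed (0.233% of all genes did) and 1, Cxcl1, had an unadjusted p under 0.05 (13.8% of genes, 4.11% higher and 9.65% lower). Icam1, Vcam1, Cxcl1 and, on its brighter probe, Il1b were higher at 24 h without overlap (16.1% of genes) and Ccl2 was lower (22.4%). On the second Il1b probe these groups overlapped, with mean levels of -3.57 at 6 h and -3.70 at 24 h. Cxcl1 differed by 1.40 (95% interval 0.01 to 2.80; adjusted p = 0.36 by limma), Icam1 by 0.87 (-0.02 to 1.76), Vcam1 by 0.72 (-0.82 to 2.25) and Ccl2 by -1.13 (-2.85 to 0.59). Without the 4 arrays with the lowest share of detected spots, which are in other groups, Cxcl1 had the same value of 1.40 with an SE of 0.33 in place of 0.66 and passed (limma, adjusted p = 0.030), as did 7.78% of all genes. Without only the array that stood apart its adjusted p was 0.0504 by limma.

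At 1/5, 0 of 9 members passed (0.0983% of all genes) and 2 had an unadjusted p under 0.05 (33% of genes, 18.1% higher and 14.9% lower). Vcam1 differed by 2.30 (adjusted p = 0.11 by limma) and Icam1 by 1.11 (adjusted p = 0.12 by limma), both higher on all 3 arrays of 24 h than on any of 6 h (15.5% of genes). Without the array that stood apart Vcam1 differed by 1.07 and Icam1 by 1.07. Without the 4 arrays with the lowest share of detected spots, which leaves 1 array of 1/5 at 24 h, Vcam1 differed by 0.81 (adjusted p = 0.72 by limma) and Icam1 by 0.47 (adjusted p = 0.91 by limma). With the share as a covariate the values were 0.61 and 0.58. Without replicate 2 of 1/5 at 24 h, Vcam1 (3.05, adjusted p = 0.0093 by limma) and Icam1 (1.43, adjusted p = 0.020 by limma) both passed, as did 38.4% of all genes in that fit. At 1/25, 0 of 9 passed (0% of all genes) and 0 had an unadjusted p under 0.05 (9.91% of genes). Icam1 was at 0.89, Il1b at 0.83 on its brighter probe, Vcam1 at 0.82 and Cxcl1 at 0.79. The second Il1b probe went the other way, with mean levels of -3.68 at 6 h and -4.11 at 24 h. Icam1 and Vcam1 were thus higher on average at 24 h at each of the 3 concentrations. The time groups lie on different slides, and slide and time cannot be told apart.

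**Figure D5:**
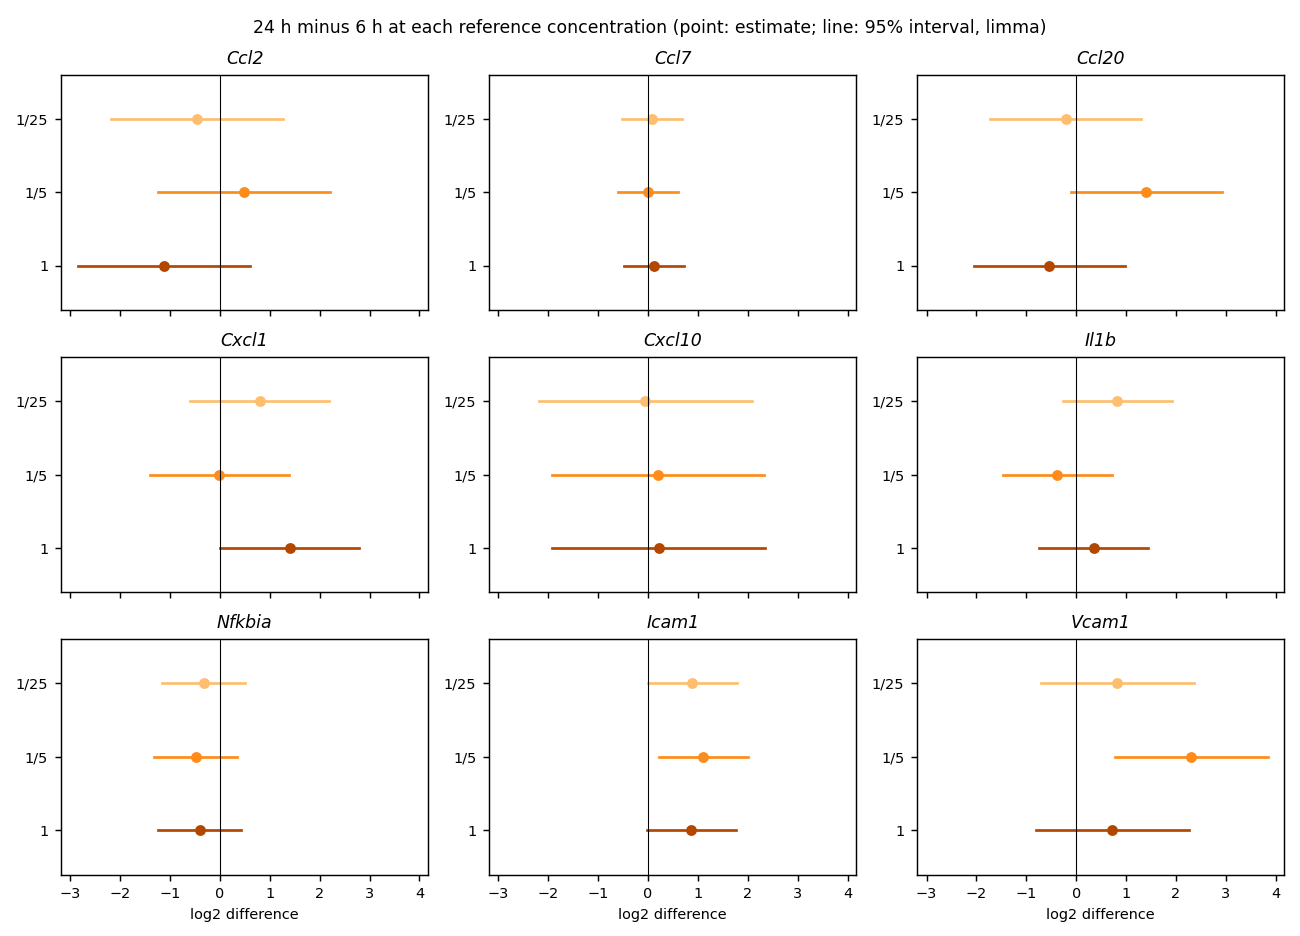
Difference between 24 h and 6 h (log2, horizontal axis) at each reference concentration for the 9 measured members, with the limma estimate as a point and its 95% interval as a line. The estimates for Icam1 (0.87, 1.11 and 0.89 at 1, 1/5 and 1/25) and Vcam1 (0.72, 2.30 and 0.82) are all above 0.

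No member passed between neighbouring concentrations at one time. Between 1 and 1/5, 0 of 9 passed at 6 h (0.00656% of all genes) and at 24 h (0%), and between 1/5 and 1/25 0 of 9 passed at 6 h (0%) and at 24 h (0.00328%). The counts with an unadjusted p under 0.05 were 0 (2.8% of genes), 2 (Ccl20 and Vcam1; 21.5%), 0 (2.78%) and 0 (6.68%). On its brighter probe Nfkbia was higher at 1 than at 1/5 for 6 h without overlap (12% of genes), by 0.37 (95% interval -0.46 to 1.21). On its dimmer probe these groups overlapped, with mean levels of -3.43 at 1 and -3.45 at 1/5. The brighter probe of Ccl7 was higher at 1/5 than at 1/25 for 24 h without overlap (3.06% of genes), by 0.47 (-0.13 to 1.08). On the second Ccl7 probe these groups overlapped. The test of whether the change from 6 h to 24 h differed between concentration 1 and 1/25 called 0 of 9 members (0% of all genes; 0 members and 2.57% of genes at an unadjusted p under 0.05). Its largest estimates were -0.67 for Ccl2 (95% interval -3.11 to 1.77) and 0.61 for Cxcl1 (-1.36 to 2.58). When the 7 group means of each member are put in order, 4 of the 54 gaps between neighbours exceed the larger of their SDs. These are Ccl2 between concentration 1 at 6 h and untreated, the highest group, and Ccl7 between its 2 lowest groups (both 1/25) and the next. Another is Il1b between concentration 1 at 6 h and at 24 h. The last is Nfkbia between 1/25 at 6 h and the untreated and concentration 1 at 6 h groups above it. Ccl7, Il1b and Nfkbia are ordered on their brighter probes. On the second Il1b probe the 2 groups stood in the other order, at -3.57 for 6 h and -3.70 for 24 h.

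The other genes of the pathway, a list of 83 with 75 on the array and 56 measured, were counted by role. None passed in a comparison with untreated cultures. At an unadjusted p under 0.05, 0 were higher and 1 lower at concentration 1 for 6 h, beside 1.29% and 0.193% of all genes. For 24 h 1 was higher and 6 were lower, beside 1.89% and 2.67% of all genes. These counts are given for concentration 1 only. The median difference of the list was 0.01 and -0.26, beside 0.01 and -0.10 over all genes. By role at concentration 1 for 24 h, 0 of 12 other chemokines, 5 cytokines, 15 receptors, 17 NF-kB signalling genes, 5 adhesion genes and 2 enzymes passed. Of 26 genes chosen for values, 18 were measured. Nfkbib, Il1a, Il18, Cxcl2, Cxcr2 and Myd88 were on the array but not well above background throughout any group, and Relb and Tnfaip3 were not matched to a probe.

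Among the subunits of the factor, Rela differed from untreated cultures by 0.17 at concentration 1 for 6 h and by -0.64 for 24 h, and by -1.27 (adjusted p = 0.37 by limma) at 1/25 for 24 h. Nfkb2 had 0.46 and -0.98 at concentration 1 and its lowest value, -1.72, at 1/5 for 24 h, and Nfkb1 stayed between -0.40 and 0.85 over the 6 groups. The kinase gene Ikbkb ranged from -1.13 to 0.13, and the inhibitor gene Nfkbie from -0.61 to -0.10. The probe of Nfkbiz, another inhibitor gene, was saturated on 1 untreated and 6 treated arrays, and no difference is given for it. Of the ligands, Tnf ranged from -0.44 to 0.52 and Ccl5 from -0.80 to 0.00. The probe of Cx3cl1 was saturated on all 20 arrays, and that of Cxcl12 on all but 1 array of 1/5 at 6 h, so no difference is given for them. Of the receptors, Ccr2, which binds Ccl2 and Ccl7, was at -0.80 at concentration 1 for 24 h and 1.90 (adjusted p = 0.13 by limma) at 1/5. Ccr6, the receptor of Ccl20, ranged from -1.52 (well above background on 1 of 3 arrays) to -0.05 and Cxcr3, that of Cxcl10, from -0.53 to 0.77. The interleukin 6 receptor chains gave -1.08 to 0.40 (Il6r) and -2.97 to 0.79 (Il6st), and Il1r1 gave -0.44 to 0.69. Tlr4 ranged from -0.50 to 0.71. The lowest values of Nfkb2, Ikbkb, Ccl5 and Il6st, and the highest of Nfkb1, Tnf, Ccr2, Cxcr3 and Il6r, were at 1/5 for 24 h. That group holds the array that stood apart, and values without it are not given for these genes. Sele, an endothelial selectin, stayed near background on both untreated arrays and was detected on all 3 arrays of 1/5 at 6 h. Its mean there was at least 1.97-fold the lowest detectable signal of the untreated arrays, and the difference did not pass (adjusted p = 0.999996 by limma). Detection on all arrays of a group is also the rule by which a probe was kept, so this level is not independent of the filter.

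The genes whose normalized levels were most like those of a member were ranked by Pearson's r over the 20 arrays, among 13065 genes with an informative symbol and a value on every array. Vcam1 was nearest to Syne1 (r = 0.98), Actl6a (0.97) and Fbxo38 (0.97), and without the array that stood apart these were 0.95, 0.89 and 0.89. Icam1 was nearest to Bri3 (0.95), Saysd1 (0.95) and Smyd3 (0.95), and Cxcl1 to Errfi1 (0.94), Ino80c (0.93) and Wnk3 (0.92). Ccl2 was nearest to Ahsp (0.83), Nexn (0.82) and Dlx5 (0.81), Ccl7 to Opa3 (0.85), Rcan3 (0.85) and Kcnq1 (0.84), and Ccl20 to Sox17 (0.81), Plppr4 (0.79) and Tex9 (0.78). Cxcl10 was nearest to Runx1 (0.84), Nmt2 (0.83) and Pcgf3 (0.83), Il1b to Tspan1 (0.92) and Ube2v1 (0.90), and Nfkbia to Yars1 (0.92), Ns5atp4 (0.92) and Bop1 (0.92). Without the array that stood apart, r was 0.78 for Il1b with Tspan1, 0.82 for Cxcl1 with Wnk3 and 0.72 for Ccl2 with Dlx5. It rose for Ccl20 with Sox17 (0.90), for Ccl7 with Rcan3 and Kcnq1, and for Icam1 with Bri3 and Saysd1. No member was among the 3 nearest of another. The arrays share their signal level and slide, which enter these values.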

How the data were processed

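RNA of 20 samples was hybridised to 1-colour arrays, and per the file headers the values are processed intensity from Agilent Feature Extraction 9.5.3.1, with background subtracted by the authors' scanner software. The deposited series table holds a ratio, which matched each array's signal divided by its median and by the mean of the 2 untreated arrays; it was an alternative. Spots marked as outliers were dropped, spots of a probe were averaged, and each array's log2 signals were set against the 75th percentile of its gene spots. A probe was kept when well above background (at least a share of 0.5 of its spots) on every array of at least 1 group and when it had values on more than 10 arrays. This left 35068 of 41012 probes and, taking the brightest for each gene, 30506 genes. Symbols came from an accession for 10735 probes, a symbol for 5512 and a synonym for 3719, and 21046 kept the file's name. Positions of probes are on build rn3. A limma model (version 3.58.1, R 4.3.3) with 7 group means over all 20 arrays gave 2-sided tests, adjusted by Benjamini-Hochberg at 0.05. Alternatives covered scaling, background, filters, probes, slide, replicate numbers, array weights and leaving out each array. The fit was tested on simulated data. Python 3.11.15, pandas 2.3.3, numpy 2.4.6 and matplotlib 3.10.9 read files and drew figures.

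The members and lists were chosen with earlier results of these data known. Named genes were the 10 members, 26 pathway genes given as values, up to 3 pathway genes in each direction past the threshold, and the 3 genes most like each member, of which 1 is not reported here. For the promoters a common 10-base kappaB consensus was used. The 4 other forms that were also looked at are not given with their matches. The number of arrays limits the precision.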

Additional observations from a re-analysis of the deposited data

Results flagged for a closer look

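Cxcl1 lay on opposite sides of the untreated arrays at the 2 times. At reference concentration 1 it differed from untreated cultures by -0.84 after 6 h, with all 3 arrays below both untreated arrays, and by 0.56 after 24 h, with all 3 above them. The 2 differences share the untreated arrays. Of 30506 genes, 11.6% lay below both untreated arrays in the first group and 14.1% above both in the second; 2.21% did both, as Cxcl1 did, and 3.07% showed the opposite pattern. The difference between the 2 times, tested without the untreated arrays, was 1.40 (SE 0.66; adjusted p = 0.36 by limma, between 4.6e-06 and 0.91 over the alternatives), which did not pass. It had the same sign under each alternative run. The 2 groups lie on different slides, which cannot be told apart from time.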

How the results depend on the processing

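Over 35 alternatives, 469 counts of members called were recomputed and 444 stayed at 0. The others follow, by comparison with untreated cultures first. The share of all genes called in the same fit stands in parentheses. With limma's array weights, which ran from 0.00029 to 1462 and so rested on single arrays, members called were 1 at 1/5 for 6 h (1.76%), 3 at 1 for 24 h (29.7%) and 5 at 1/25 for 24 h (66.2%). Between times they were 6 at concentration 1 (60.7%) and 7 at 1/25 (72.8%), between concentrations at 6 h 3 for 1 and 1/5 (28.2%) and 1 for 1/5 and 1/25 (18.1%), and in the interaction 4 (51.3%). With gene-by-gene weights, chosen after seeing the data (0.037 to 10.5), members called against untreated cultures were 1 at 1/5 for 6 h (0.298%), 3 at 1 (16.3%), 2 at 1/5 (40.5%) and 5 at 1/25 for 24 h (50.6%). Between times they were 4 (47.5%), 4 (40.2%) and 5 (45.6%) at 1, 1/5 and 1/25, between 1 and 1/5 1 at 6 h (16.5%) and 1 at 24 h (28%), and in the interaction 1 (9.2%). With slide as a random block (correlation -0.17) there was 1 at 1/5 for 24 h (Vcam1; 34.3%), 3 between times at 1/5 (46%), and 4 between 1 and 1/5 at 24 h (31.8%). Without the 4 arrays with the fewest detected spots, 1 member, Cxcl1, was called between times at concentration 1 (7.78%). Leaving out 1 array gave 0 to 1 members at 1/5 for 24 h against untreated cultures, 0 to 2 between times at 1/5 and 0 to 1 between 1 and 1/5 at 24 h, each highest without replicate 2 of 1/5 at 24 h (35.3%, 38.4% and 28.6%), and 0 elsewhere.

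Replicate numbers did not pair the arrays: 57 same-numbered pairs had a median correlation of -0.04, 12 of them over 0.1. With the replicate block 0 members were called in any comparison, and genes called fell to 21 from 56 at 1/5 for 24 h and to 26 from 71 between times at concentration 1.

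Of 2673 recomputed member differences from untreated cultures or between times, 147 differed in sign from the values given and 54 passed the threshold. Comparisons between concentrations and the interaction are not in these counts. Median scaling moved the median of all genes at 24 h from -0.10, -0.12 and -0.13 to 0.11, 0.40 and 0.37 at 1, 1/5 and 1/25; of the differences from untreated cultures it turned those of Ccl7 at 1 and 1/5 and Cxcl10 at 1/5 for 24 h, and of Il1b and Nfkbia at concentration 1 for 6 h. Over the alternatives the number of genes called ranged from 0 to 69 at concentration 1 for 6 h (2 as reported), 0 to 9074 for 24 h (1), 0 to 12348 at 1/5 for 24 h (56) and 0 to 20180 at 1/25 for 24 h (1), and between times from 9 to 18513 at concentration 1 (71), 0 to 14020 at 1/5 (30) and 0 to 22219 at 1/25 (0). Quantile normalization turned the split between times at concentration 1 from 17 higher and 54 lower to 217 and 119; the causes were not tested. Signals near background limit Cxcl10, Il6 and, on 4 arrays, Ccl2.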
